A study of Mus musculus with 12 samples.

Results

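The genes described here are those of the aryl hydrocarbon receptor (AHR): Ahr, which encodes the receptor, its partner Arnt, its repressor Ahrr, and the target genes Cyp1a1, Cyp1b1 and Tiparp. They were chosen by name, as genes known to belong to the pathway and with earlier results of these data known, and make up 6 of the 48795 genes listed. RNA was sequenced from bone marrow-derived macrophages (BMDMs), which are macrophages grown in culture from mouse bone marrow with the growth factor M-CSF. The 12 libraries fell into 6 groups of 2. WT cells (strain C57BL/6 by the labels, C57BL/6NJ by the methods) and Acod1-/- cells (strain C57BL/6NJ-Acod1em1(IMPC)J/J), a constitutive mutant of the gene for the enzyme that makes itaconate, received vehicle, particulate matter (PM) at 20 μg/cm2 for 24 hours, or 4-octyl itaconate (OI, a form of itaconate that enters cells) at 0.25 mM for 2 hours before the same PM treatment. The mice were males of 7 to 11 weeks, and the PM was an urban dust reference material. No library analysed here received OI without PM, so each value for OI is one for OI given with PM. The sources do not say whether the 2 libraries of a group came from separate mice or cultures, so p-values measure only the spread between these libraries, which may be technical.

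AHR is a transcription factor that waits in the cytosol, bound to chaperones, and is activated by flat aromatic compounds such as the polycyclic hydrocarbons of combustion products, and by products of tryptophan. Once bound, it moves to the nucleus and pairs with ARNT on DNA sites with the core GCGTG. Its classical targets Cyp1a1 and Cyp1b1 encode cytochrome P450 enzymes that oxidize such compounds, while Ahrr and Tiparp encode proteins that restrain the receptor, the first by competing for ARNT and the second by attaching ADP-ribose to it. In macrophages the receptor is known for tempering inflammatory gene expression.

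Ahr and Tiparp were higher after OI and PM than after PM alone in both genotypes, by 2.47-fold and 2.22-fold in WT cells and by 2.44-fold and 2.25-fold in Acod1-/- cells. Tiparp was also higher after PM alone than after vehicle, by 1.67-fold in WT cells and 1.40-fold in Acod1-/- cells. For Ahr this PM step was smaller, at 1.46-fold and 1.19-fold. Ahrr and Cyp1b1 changed mainly with PM. Ahrr was 3.36-fold higher in WT cells and 4.62-fold higher in Acod1-/- cells after PM than after vehicle, and adding OI gave no difference that passed the main test. Arnt passed none of the main tests. Cyp1a1, the textbook readout of the receptor, had 22 counts over all 12 libraries, so each of its values rests on few reads.

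By the GRCm38 annotation, Ahr (ENSMUSG00000019256.17) lies on chr12:35497974-35535038 (minus strand), Arnt (ENSMUSG00000015522.18) on chr3:95434388-95497240 (plus), Ahrr (ENSMUSG00000021575.15) on chr13:74211118-74292331 (minus), Tiparp (ENSMUSG00000034640.9) on chr3:65528410-65555518 (plus), Cyp1a1 (ENSMUSG00000032315.5) on chr9:57687928-57703824 (plus) and Cyp1b1 (ENSMUSG00000024087.3) on chr17:79701537-79715061 (minus). Exons of Ahr share 127 bases with those of Gm48236 on the opposite strand, and exons of Tiparp share 223 bases with those of 4931440P22Rik on the opposite strand. The use of strand in counting is not given in the sources used here, so a small part of the reads of these genes could belong to those neighbours. The exons of the other members overlapped no other gene.

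Stretches of up to 250 bases before the RefSeq start sites of Ahrr, Tiparp, Cyp1b1 and Cyp1a1 are shown because their levels are compared below and because the core motif can be seen in them. They were read from RefSeq (GRCm38.p6), matched by symbol for 5 of the 6 members, since the table has no entry for Ahr. Each runs 5′ to 3′ on the strand of the gene, and capitals mark the core GCGTG, or CACGC where it reads on the other strand. They cover chr13:74292332-74292581 (minus), chr3:65528197-65528409 (plus), chr17:79715062-79715311 (minus) and chr9:57697363-57697612 (plus). RefSeq starts need not be those of the GENCODE annotation used for the gene positions. The stretches of Ahrr and Cyp1b1 adjoin the annotated genes. The stretch of Cyp1a1 lies inside the annotated gene but outside its exons. The Tiparp stretch is shown up to the annotated start, without its last 37 bases, which lie in an annotated exon.
Ahrr: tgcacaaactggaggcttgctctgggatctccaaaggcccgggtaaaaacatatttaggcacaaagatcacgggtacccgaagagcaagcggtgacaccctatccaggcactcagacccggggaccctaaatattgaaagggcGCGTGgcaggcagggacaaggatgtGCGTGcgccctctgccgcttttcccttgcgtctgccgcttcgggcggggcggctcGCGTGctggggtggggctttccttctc
Tiparp: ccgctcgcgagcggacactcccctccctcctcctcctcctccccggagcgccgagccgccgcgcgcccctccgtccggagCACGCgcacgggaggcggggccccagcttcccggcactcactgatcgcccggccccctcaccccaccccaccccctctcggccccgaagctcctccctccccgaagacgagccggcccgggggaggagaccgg
Cyp1b1: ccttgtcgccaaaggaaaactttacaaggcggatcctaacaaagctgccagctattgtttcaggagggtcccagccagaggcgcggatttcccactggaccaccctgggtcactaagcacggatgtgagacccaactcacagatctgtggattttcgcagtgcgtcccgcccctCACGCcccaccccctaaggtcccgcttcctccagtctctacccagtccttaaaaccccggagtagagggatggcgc
Cyp1a1: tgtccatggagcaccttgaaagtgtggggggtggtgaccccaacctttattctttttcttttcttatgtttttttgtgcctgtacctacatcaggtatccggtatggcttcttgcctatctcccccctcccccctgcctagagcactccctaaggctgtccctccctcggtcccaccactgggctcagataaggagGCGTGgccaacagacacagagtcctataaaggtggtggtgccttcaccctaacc

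The Ahrr stretch held 3 cores, whose first bases lie 107, 82 and 27 bases before the RefSeq start, and the last of them was the only one in these stretches that extended to TNGCGTG, an overlapping and longer form of the motif. Tiparp held 1 core, 170 bases before the start, Cyp1b1 held 1, 76 bases before it, and Cyp1a1 held 1, 54 bases before it. Arnt, whose stretch is not shown, also held 1. Of 32817 stretches of 250 bases in the table, 28.1% held the core on either strand and 4.10% held TNGCGTG. A match describes the sequence without showing that the receptor binds there.

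The libraries held between 33616577 and 36817898 counts. All 7 macrophage markers examined were above 1 CPM (counts scaled to library size) in every library, and the summed CPM of each marker list for other cells of bone marrow or connective tissue was at most 2.32 in any library. The macrophage markers summed to between 13998 and 14431 CPM with vehicle, 22954 and 26966 after PM, and 14310 and 16446.5 after OI and PM. These sums mostly reflect Lyz2, which ran from 9084 to 21225 CPM over the libraries. Fcgr1 and Mertk reached at most 122 and 92.3 CPM, so the sums do not show how each marker moved. Fibroblast and endothelial markers summed to at most 0.872 and 0.301 after OI and PM, against at least 1.36 and 0.891 with vehicle. Whether these shifts bear on the members was not tested. In bulk samples such as these, fewer cells of a kind and less RNA per cell cannot be told apart. Reads on Acod1 were still counted in the libraries labelled Acod1-/-, at a mean of 101 normalized CPM after PM against 176 in WT, so transcript level does not check the genotype here. Replicates of the WT groups given PM differed more than others. The chi-square divided by its degrees of freedom for 2 replicates was 27.3 for PM and 58.5 for OI and PM, against 2.61 to 8.32 in the other groups. The difference of replicate 2 from replicate 1 ran with gene length (rho of -0.60 and -0.61 across 11208 genes). It did so less in WT cells with vehicle (-0.28) and in Acod1-/- cells with OI and PM (-0.29). In Acod1-/- cells rho was 0.08 with vehicle and 0.36 with PM, the opposite direction. Ahr, Arnt and Ahrr have long transcripts, of 6163, 8007 and 9441 exonic bases, and were all higher in replicate 1 of both WT groups given PM.

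**Figure D1:**
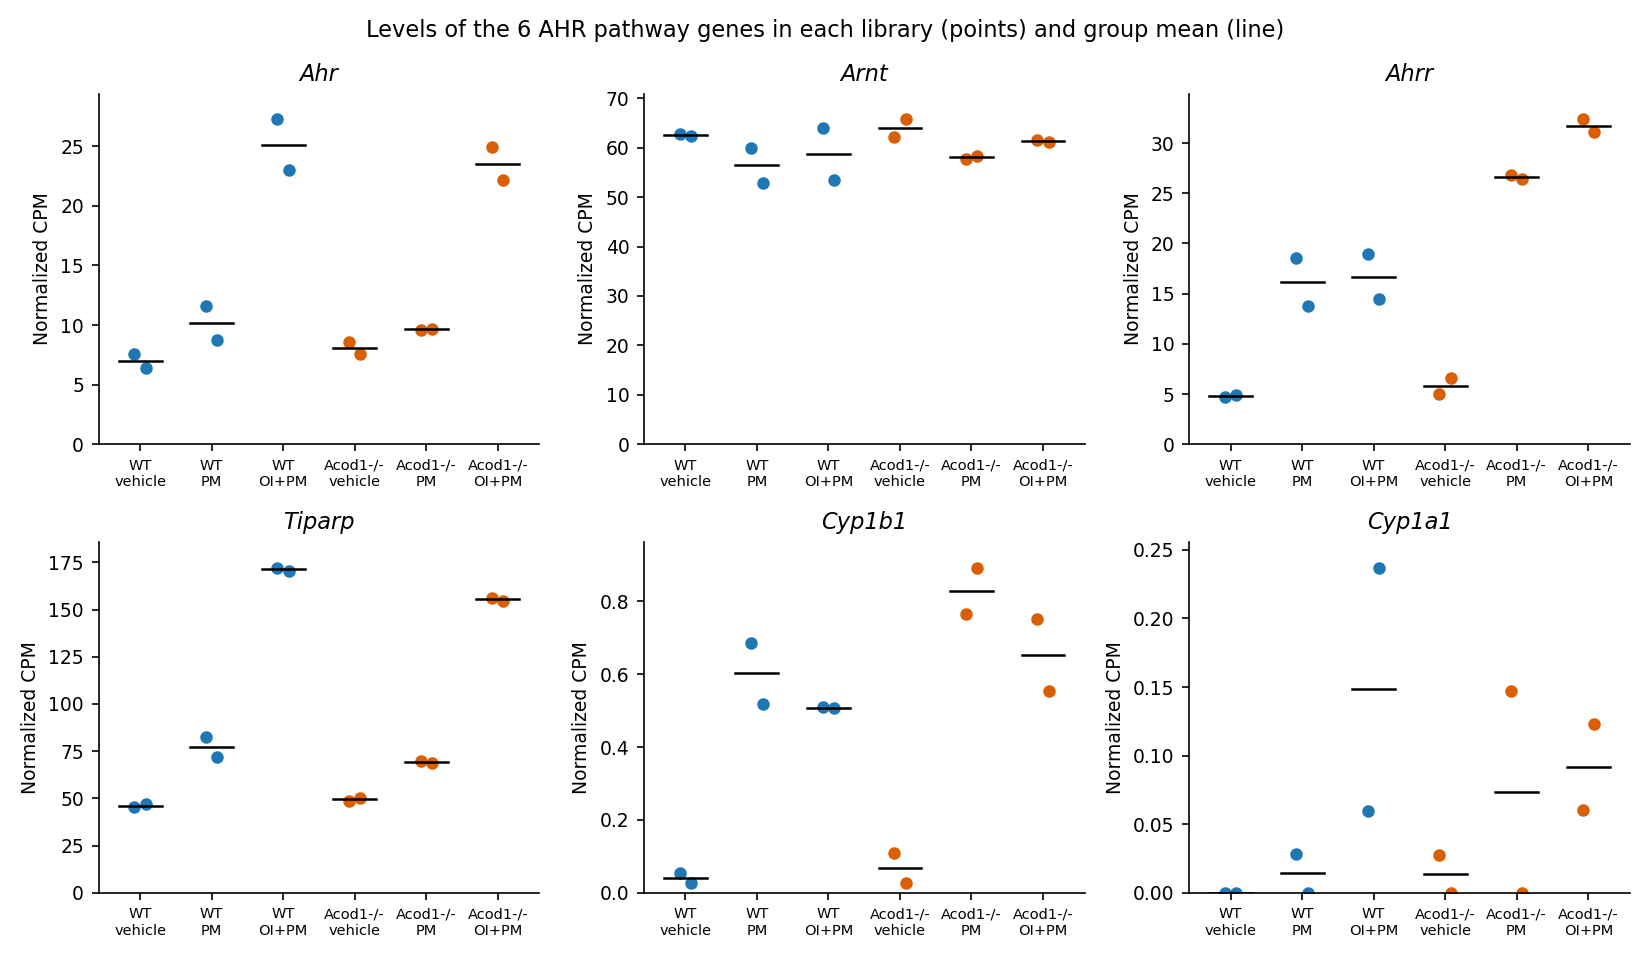
Normalized CPM (vertical axis, linear from 0) of each member in the 12 libraries. Points are libraries, lines are means of 2, blue is WT and orange is Acod1-/-. Ahr and Tiparp are highest with OI and PM, and Tiparp also steps up with PM alone. Ahrr and Cyp1b1 step up with PM, Arnt stays between 52.9 and 65.7, and Cyp1a1 stays under 0.24.

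Levels per length, in normalized CPM per kilobase of exon, put Tiparp first in every group, followed by Arnt. In vehicle-treated WT cells the means were 10.6 ± 0.283 (SD, n = 2) for Tiparp, 7.82 ± 0.0408 for Arnt, 1.13 ± 0.134 for Ahr, 0.511 ± 0.0137 for Ahrr and 0.00675 ± 0.00339 for Cyp1b1, and no read was counted on Cyp1a1. The order of Ahr and Ahrr depended on the group. In PM-treated WT cells Ahrr stood at 1.72 ± 0.359 and Ahr at 1.65 ± 0.322, within each other's spread. In PM-treated Acod1-/- cells Ahrr was above Ahr in both libraries, at 2.82 ± 0.0289 against 1.56 ± 0.0123. With OI and PM, Ahr was the higher one in WT cells, at 4.08 ± 0.487 against 1.77 ± 0.333, and in Acod1-/- cells, at 3.82 ± 0.315 against 3.36 ± 0.0902, where the libraries of the 2 genes did not overlap. Cyp1a1 was last and Cyp1b1 next to last in each group, and only in vehicle-treated Acod1-/- cells did their libraries overlap, at 0.0049 ± 0.00694 and 0.0117 ± 0.00988.

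The next comparisons asked which members respond to PM, whether OI changes that response, and whether either depends on Acod1. A gene was called, as a DEG, where the quasi-likelihood test in edgeR reached a p of at most 0.05, with the Benjamini-Hochberg correction made over all genes tested, and the log2 fold change was 1 or more in either direction. Ahr, Arnt, Ahrr and Tiparp passed the filter on low values (CPM above 1.5 in at least 2 libraries, 11228 genes). Cyp1a1 and Cyp1b1 did not, and were tested among the 17642 genes with at least 10 counts in total.

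After PM, 2 of the 6 members were called in WT cells and the same 2 in Acod1-/- cells, Ahrr and Cyp1b1, both higher. Over all genes past the filter, 4.15% were called in WT cells (3.02% as higher) and 4.5% in Acod1-/- cells (3.19% as higher), and over the genes with at least 10 counts, 3.59% and 3.84%. With OI and PM against PM alone, Ahr and Tiparp were called as higher in each genotype, where 10.8% of genes were called in WT cells (2.3% as higher) and 9.83% in Acod1-/- cells (1.85% as higher). With OI and PM against vehicle, 5 members were called in WT cells, all but Arnt, and 4 in Acod1-/- cells, all but Arnt and Cyp1a1, where 16.1% and 13.1% of genes were called (5.38% and 3.88% as higher). The comparisons with vehicle share the vehicle libraries, and those with OI share the OI libraries, so these counts are not independent of each other.

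**Figure D2:**
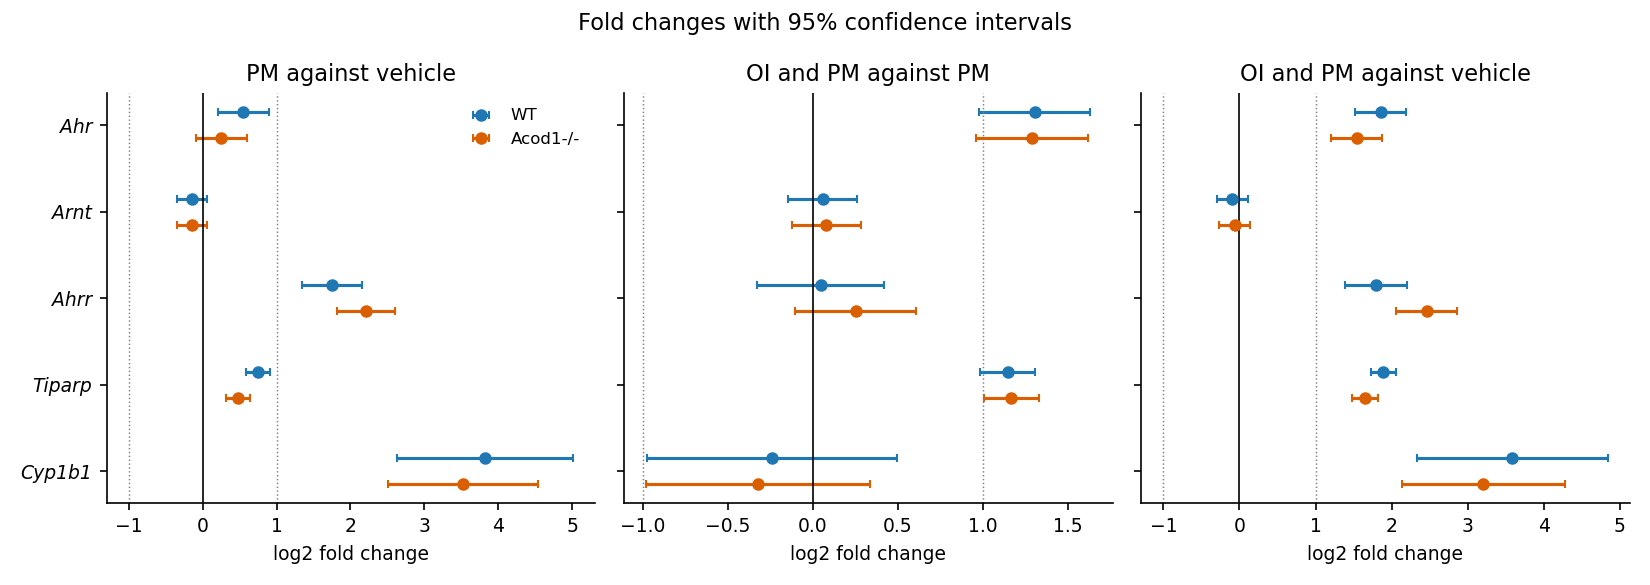
Log2 fold changes (horizontal axis) of 5 members with 95% confidence intervals from edgeR's quasi-likelihood fit, in WT (blue) and Acod1-/- cells (orange); dotted lines mark a log2 fold change of 1 in size. Ahrr and Cyp1b1 lie right of the line for PM, and Ahr and Tiparp for OI and PM against PM.

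Ahr, the receptor, was counted 282 and 250 times in the vehicle-treated WT libraries, 405 and 304 times after PM, and 910 and 680 times after OI and PM. Those in Acod1-/- cells were 315 and 273, 326 and 337, and 829 and 720. The 4 libraries given OI and PM stood above all the others. In normalized CPM, the means were 6.95 ± 0.829, 10.2 ± 1.99 and 25.1 ± 3.003 in WT cells, and 8.10 ± 0.729, 9.64 ± 0.0755 and 23.5 ± 1.94 in Acod1-/- cells.

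On the log2 scale the OI step was 1.31 in WT cells (SE 0.147, adjusted p = 5.83e-05 by edgeR) and 1.29 (SE 0.147, adjusted p = 7.3e-05) in Acod1-/- cells. By size of increase, Ahr ranked 131 and 114 among the 11228 genes tested. The PM step was smaller. On that scale it reached 0.55 (SE 0.155, adjusted p = 0.0293) in WT cells, which passes on the adjusted p alone, as 24.8% of genes did. Its adjusted p by edgeR rose to 0.0535 with the compared groups fitted alone (0.55) and to 0.0696 with scaling to the total count (0.46). It fell to 0.00596 with a replicate block (0.54) and to 0.00414 with a length correction (0.63). The log2 fold change was 0.68 and 0.43 without vehicle replicate 1 or 2, and 0.33 and 0.74 without PM replicate 1 or 2. In Acod1-/- cells the PM step was 0.25 (95% interval -0.09 to 0.60, adjusted p = 0.261), and it passed with the compared groups alone (0.26, adjusted p = 0.0465) and with a length correction and replicate block (0.33, adjusted p = 0.02). The difference between the genotypes in the PM step was -0.30 (interval -0.79 to 0.19, adjusted p = 1).

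Arnt, which pairs with the receptor and with hypoxia-inducible factors, gave between 1583 and 2451 counts in every library. Its group means ran from 56.4 ± 4.92 normalized CPM in PM-treated WT cells to 64.0 ± 2.46 in vehicle-treated Acod1-/- cells. It was lower after PM than after vehicle by a log2 fold change of -0.15 in WT cells (interval -0.36 to 0.05, adjusted p = 0.231, edgeR) and of -0.14 in Acod1-/- cells (interval -0.35 to 0.07, adjusted p = 0.287), without overlap of the libraries in either genotype. Neither difference passed the test, and the intervals leave out a halving or a doubling. The OI step was 0.06 (adjusted p = 0.622) and 0.08 (adjusted p = 0.551). Against vehicle, OI and PM in WT cells gave -0.09 (adjusted p = 0.394, edgeR), which became -0.31 (adjusted p = 0.031) with scaling to the total count and -0.23 (adjusted p = 0.0282) without OI and PM replicate 1, both past the adjusted p. Under other scaling or a length correction, several of these small values change sign, as given in the closing section.

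Ahrr, the repressor, was counted 177 and 193 times in vehicle-treated WT libraries, 651 and 479 times after PM, and 632 and 428 times after OI and PM. Those in Acod1-/- cells were 182 and 236, 913 and 920, and 1076 and 1011. All PM-treated libraries, with or without OI, lay above all vehicle-treated ones, and the Acod1-/- libraries given PM lay above the WT libraries given PM. The means were 4.82 ± 0.129, 16.2 ± 3.39 and 16.7 ± 3.14 normalized CPM in WT cells, and 5.76 ± 1.12, 26.7 ± 0.273 and 31.7 ± 0.852 in Acod1-/- cells.

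PM raised Ahrr by 1.75 on the log2 scale in WT cells (SE 0.182, adjusted p = 1e-04 by edgeR) and by 2.21 (SE 0.178, adjusted p = 1.49e-05) in Acod1-/- cells, ranks 152 and 111 by size of increase. The OI step was 0.05 in WT cells (interval -0.33 to 0.42, adjusted p = 0.843) and 0.25 in Acod1-/- cells (interval -0.10 to 0.61, adjusted p = 0.262). With the compared groups fitted alone, the value in Acod1-/- cells was 0.26 and passed (adjusted p = 0.00504, edgeR). These intervals leave out a change of the size that Ahr and Tiparp showed in the same comparison. With scaling to the total count, the value in WT cells turned to -0.08.

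Ahrr was the only member with a difference between genotypes that passed on the adjusted p. Acod1-/- cells held more Ahrr than WT cells by a log2 fold change of 0.26 with vehicle (interval -0.18 to 0.69, adjusted p = 0.845, edgeR), 0.72 with PM (adjusted p = 0.0558, SE 0.163) and, with OI and PM, 0.92 (adjusted p = 0.013, SE 0.164), where 6.96% of genes passed on the adjusted p alone. No member was called with the fold threshold in any of the 3 genotype comparisons, by edgeR or by DESeq2, where 0.481%, 0.561% and 0.917% of genes were called by edgeR. The last share, 103 genes, rests on single libraries: it was 347 and 68 genes without WT replicate 1 or 2, 38 and 46 without Acod1-/- replicate 1 or 2, and 2 with the compared groups alone. The first, 54 genes, was 32 to 35 without any 1 of its libraries. At an unadjusted p of 0.05 the counts of members were 0, 1 and 1, Ahrr each time. These values of Ahrr rest on replicates that differ with gene length, most in WT cells. With PM, the Acod1-/- replicates differ with it in the opposite direction. With a correction for length the log2 fold changes were 0.67 (adjusted p = 0.00534, edgeR) with PM and 0.81 (adjusted p = 0.00142) with OI and PM. With PM, the adjusted p was also under the threshold by DESeq2 (0.0044). By edgeR it was 0.0341 with the compared groups fitted alone, 0.00659 with the length correction and replicate block, and 0.0558 with that block alone. It was 0.0304 with a block that exchanges the replicate numbers of the Acod1-/- libraries given PM, added after seeing the data. The log2 fold change with PM was 0.95 and 0.52 without WT replicate 1 or 2, and 0.71 and 0.73 without Acod1-/- replicate 1 or 2. With OI and PM, the adjusted p was 0.221 with the compared groups fitted alone, and 0.103 and 0.0851 without Acod1-/- replicate 1 or 2. Without WT replicate 1 of that group, the log2 fold change was 1.13, which is past the fold threshold.

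The balance of repressor and receptor was read as Ahrr reads per Ahr read, which depends on no scaling between libraries but favours Ahrr, the longer transcript. It was 0.628 and 0.772 in the vehicle-treated WT libraries, 1.61 and 1.58 after PM, and 0.695 and 0.629 after OI and PM. In Acod1-/- libraries it was 0.578 and 0.864, 2.80 and 2.73, and 1.30 and 1.40. With PM alone, the 4 libraries held at least 1.58 repressor reads for each receptor read. In WT cells the libraries with OI and PM lay within the range of the vehicle-treated ones, while in Acod1-/- cells they lay above both vehicle-treated libraries. Per exonic length, the means were 0.457, 1.04 and 0.432 in WT cells and 0.471, 1.81 and 0.882 in Acod1-/- cells, so with OI and PM the receptor was ahead in Acod1-/- cells on this scale. With 2 libraries in a group these ratios are given as a description, without a test.

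**Figure D3:**
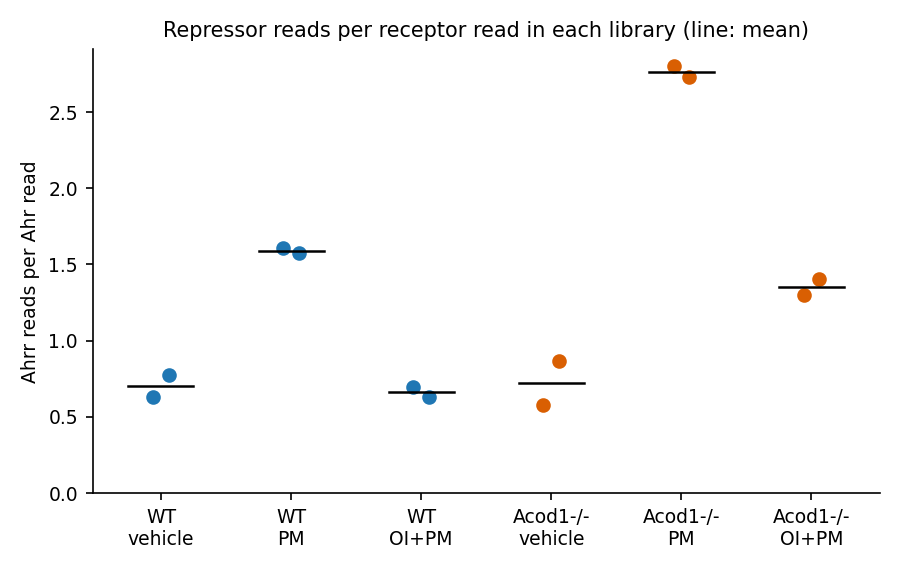
Ahrr reads per Ahr read (vertical axis, from 0) in each library (points) with the mean of 2 (line); blue is WT and orange is Acod1-/-. The means are 0.700, 1.59 and 0.662 in WT cells and 0.721, 2.77 and 1.35 in Acod1-/- cells for vehicle, PM, and OI with PM, without correction for the lengths of the 2 transcripts.

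Tiparp, the ADP-ribosyltransferase that acts on the receptor, was counted 1696 and 1849 times in vehicle-treated WT libraries, 2894 and 2495 times after PM, and 5744 and 5041 times after OI and PM. Those in Acod1-/- cells were 1780 and 1814, 2372 and 2383, and 5199 and 5020. The 3 treatments did not overlap in either genotype. The means were 46.2 ± 1.23, 77.3 ± 7.61 and 171 ± 1.04 normalized CPM in WT cells and 49.5 ± 1.21, 69.1 ± 0.854 and 155 ± 1.17 in Acod1-/- cells.

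For Tiparp the PM step on the log2 scale was 0.74 in WT cells (SE 0.0729, adjusted p = 6.57e-05 by edgeR) and 0.48 (SE 0.0728, adjusted p = 0.000977) in Acod1-/- cells, both past the adjusted p, as for 24.8% and 23.9% of genes, but under the fold threshold. The OI step was 1.15 (SE 0.0725, adjusted p = 8.32e-07) and 1.17 (SE 0.0726, adjusted p = 7.92e-07). The difference between genotypes in its PM step, tested as an interaction in edgeR, was -0.26 (interval -0.49 to -0.03), with an unadjusted p = 0.0297 and an adjusted p = 1, so it did not pass.

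Cyp1b1, a P450 enzyme found outside the liver, was at the edge of detection with vehicle. It had 2 and 1 counts in the WT libraries, 24 and 18 after PM, and 17 and 15 after OI and PM. In Acod1-/- cells it had 4 and 1, 26 and 31, and 25 and 18. Every library given PM was above every vehicle-treated one. Pooled over 2 libraries and scaled to depth, the PM to vehicle ratio was 15.4 in WT cells (42 against 3 counts, exact 95% interval 4.92 to 77.7) and 12.03 in Acod1-/- cells (57 against 5 counts, interval 4.87 to 38.5), where the intervals cover counting error only. On the log2 scale these were 3.82 (SE 0.544, adjusted p = 0.000521 by edgeR) and 3.53 (SE 0.463, adjusted p = 0.000259). With 1 library left out, the log2 values ran from 3.41 to 4.37 in WT cells and from 2.89 to 4.73 in Acod1-/- cells.

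For Cyp1b1, OI and PM against PM alone gave a ratio of 0.844 in WT cells (interval 0.515 to 1.37) and of 0.789 in Acod1-/- cells (interval 0.519 to 1.19), with adjusted p of 0.65 and 0.519 by edgeR. Between these groups, the libraries with more Ahr reads did not hold detectably more Cyp1b1 reads at this depth. Against vehicle they did, at 32 against 3 pooled counts in WT cells and 43 against 5 in Acod1-/- cells. These libraries also received PM, which alone gave 42 against 3 and 57 against 5, so Ahr level and PM cannot be told apart there. A link between Ahr and Cyp1b1 was not tested. Even at its highest, in PM-treated Acod1-/- cells, Cyp1b1 had a mean of 0.828 ± 0.0899 normalized CPM.

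Cyp1a1 had 0 counts in both vehicle-treated WT libraries, 1 and 0 after PM, and 2 and 7 after OI and PM. In Acod1-/- cells it had 1 and 0, 5 and 0, and 2 and 4. Only the comparison of OI and PM with vehicle in WT cells was called, on 9 counts against 0 (adjusted p = 0.0456, edgeR, with 15.2% of the 17642 genes called). With a floor of 3 counts set for the vehicle group, the ratio is 3.66. This is no lower limit, since the exact 95% interval against 0 counts, for counting error alone, starts at 2.41. The call is marginal. The adjusted p was 0.0501 by DESeq2. By edgeR it was 0.0549 with a replicate block, 0.0552 with scaling to the total count and 0.073 with the compared groups fitted alone. The call was also lost when either vehicle-treated library was left out, and without OI and PM replicate 2, which holds 7 of the 9 counts. In Acod1-/- cells the same comparison had 6 counts against 1 (ratio 6.63, interval 0.804 to 305, adjusted p = 0.272).

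No member passed the interaction test in edgeR for a difference between genotypes in the response to PM or to OI, where 0% of genes were called. For OI that share depends on the setting: of 11228 genes, 5 were called by DESeq2, 4 with the length correction and 44 without WT OI and PM replicate 1. At an unadjusted p of 0.05 the counts were 1 member for PM (Tiparp) and 0 for OI, and DESeq2 called 0 members in both. For the OI step the difference between Acod1-/- and WT was -0.02 for Ahr (interval -0.48 to 0.44) and 0.02 for Tiparp (interval -0.21 to 0.25). For the PM step it was 0.46 for Ahrr (interval -0.11 to 1.03), so a difference of up to about a doubling in the response of Ahrr cannot be told from none with 2 libraries per group.

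The remaining genes of the pathway were read from 5 lists of 49 genes in all: the cytosolic complex of the receptor, relatives of ARNT in the bHLH-PAS family, other reported targets, enzymes of tryptophan breakdown, and enzymes that act beside P450s. Of these, 26 passed the CPM filter, 10 were tested only with the genes of at least 10 counts, and 13 had fewer counts. After PM, 7 of the 36 tested were called in WT cells, all higher, and 7 in Acod1-/- cells, 6 of them higher. All of these had passed the filter, and the share of all genes past it that were called was 4.15% and 4.5%. For OI and PM against PM alone, 10 were called in WT cells (4 higher and 6 lower) and 8 in Acod1-/- cells (2 higher and 6 lower). Of the 26 past the filter, 4 were called in each genotype, beside 10.8% and 9.83% of all genes past it. Over the 26 genes the median log2 fold change for PM was 0.15 in WT cells and 0.13 in Acod1-/- cells, beside 0.01 and 0.00 over all genes past the filter. For OI it was 0.22 and 0.23, beside 0.02 and 0.00. For OI and PM against vehicle, 16 genes were called in WT cells (9 higher and 7 lower) and 14 in Acod1-/- cells (8 higher and 6 lower). Of the 26, 12 and 10 were called, beside 16.1% and 13.1% of all genes past the filter, and the medians were 0.34 and 0.06, beside 0.02 and -0.01. On the adjusted p alone, 20 and 18 of the 26 passed in that comparison, beside 65.5% and 49.4% of all genes past the filter, and between genotypes 2 passed with vehicle and 2 with PM, beside 1.83% and 2.4%. Of the genes called, Ephx1, an epoxide hydrolase (1.16), and Epas1, which encodes HIF-2α (-1.24), were called in WT cells and passed on the adjusted p in Acod1-/- cells (0.92 and -0.94), and Npas2, a clock factor, was called in both (-1.13 and -1.19). The call of Ephx1 was lost with total count scaling and with the length correction, and those of Npas2 without OI and PM replicate 2 of the same genotype and, in WT cells, with the compared groups alone.

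**Figure D4:**
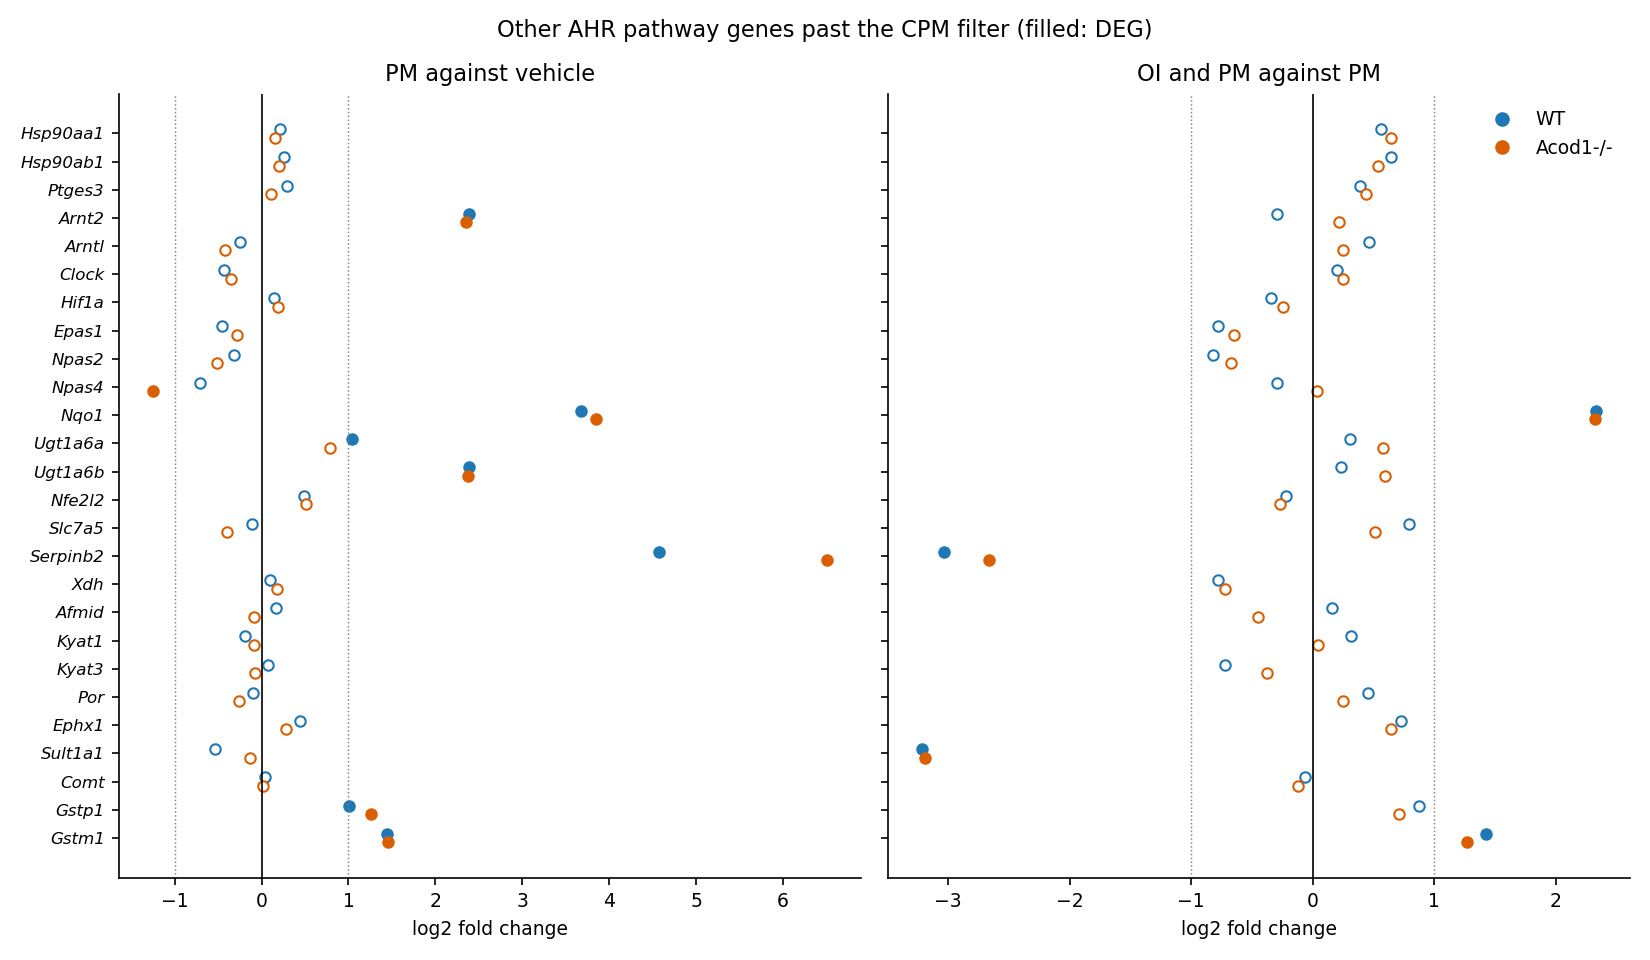
Log2 fold changes (horizontal axis) for the 26 other pathway genes past the CPM filter, with PM against vehicle on the left and OI and PM against PM on the right. Blue is WT, orange is Acod1-/-, filled points are DEGs and dotted lines mark a log2 fold change of 1 in size. Nqo1 and Gstm1 are higher in both panels, while Serpinb2 is higher on the left and lower on the right.

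In the cytosolic complex none of the 3 genes listed was called by edgeR, since no fold change reached the threshold, but Hsp90aa1 and Hsp90ab1, which encode the HSP90 chaperone, and Ptges3, its p23 co-chaperone, passed on the adjusted p with OI in both genotypes, as 43.9% of all genes did in WT cells and 34.6% in Acod1-/- cells. Their log2 fold changes for OI were 0.56 and 0.64 (Hsp90aa1), 0.64 and 0.54 (Hsp90ab1), and 0.39 and 0.44 (Ptges3) in WT and Acod1-/- cells. With PM against vehicle, all 3 also passed on the adjusted p as higher in WT cells, as did 24.8% of all genes in either direction. In Acod1-/- cells only Hsp90ab1 did, beside 23.9% of all genes. At an unadjusted p of 0.05 the counts for OI were 3 and 3 of 3, and DESeq2 called 0.

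Among relatives of ARNT, Arnt2 rose with PM from 21 and 14 counts to 90 and 78 in WT cells and from 9 and 10 counts to 49 and 44 in Acod1-/- cells, where Arnt itself did not change detectably. The log2 fold changes were 2.39 (adjusted p = 6.26e-05, edgeR) and 2.35 (adjusted p = 0.00028). Its exons share 214 bases with those of Gm30873 on the opposite strand. At a mean of 2.41 normalized CPM in PM-treated WT cells it stayed far below Arnt, at 56.4. Npas4, an activity-induced factor of neurons, fell by 1.25 on the log2 scale with PM in Acod1-/- cells (adjusted p = 0.00111, edgeR) and by 0.71 in WT cells (adjusted p = 0.0234), where it stayed under the fold threshold. Arntl2, a clock factor, went with OI from 39 to 9 pooled counts in WT cells and from 28 to 7 in Acod1-/- cells.

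Of the other reported targets, Nqo1, a quinone reductase shared with NRF2, rose with PM by log2 3.68 in WT cells and 3.85 in Acod1-/- cells, and with OI by a further 2.33 and 2.32. On the adjusted p alone, Nqo1 was lower in Acod1-/- than in WT cells with vehicle, with PM and with OI and PM, but it was not called. Over all genes past the filter, 1.83%, 2.4% and 6.96% passed in these comparisons. Serpinb2, an inhibitor of plasminogen activators, moved in opposite directions in the 2 steps: 23 pooled counts with vehicle, 502 with PM and 55 with OI and PM in WT cells, and 8, 711 and 107 in Acod1-/- cells. Its log2 fold changes for OI were -3.03 (adjusted p = 2.35e-06, edgeR) and -2.66 (adjusted p = 2.34e-06). The exons of Serpinb2 share 291 bases with those of Serpinb10 on the same strand. Ugt1a6a and Ugt1a6b, glucuronidation enzymes, had 1.04 and 2.38 with PM in WT cells and 0.79 and 2.37 in Acod1-/- cells, but they share 1311 exonic bases with each other and with other Ugt1a genes, so how their reads were divided is uncertain. The call of Ugt1a6a was lost with total count scaling and without vehicle replicate 1 or 2 or PM replicate 1. Socs2, which restrains cytokine signalling, had 76 pooled counts with PM and 15 with OI and PM in Acod1-/- cells, a log2 fold change of -2.24 that was called, and 88 and 56 in WT cells, at -0.50 (adjusted p = 0.187, edgeR). The interaction of -1.75 did not pass (adjusted p = 0.652, edgeR). Gsta1, a glutathione transferase, had 4 pooled counts with PM and 21 with OI and PM in WT cells, and 3 and 8 in Acod1-/- cells. Hes1 had 0 and 13 in WT cells and 3 and 3 in Acod1-/- cells, and Ido2 had 11 and 0, and 9 and 2. In WT cells these 3 were called, but not with the compared groups alone, and DESeq2 did not call Gsta1 or Ido2. The call of Ido2 was lost without any 1 of the 4 libraries compared, that of Hes1 without either PM library, and that of Gsta1 without PM replicate 1 or OI and PM replicate 2.

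No tryptophan enzyme was called with PM by edgeR (1 had an unadjusted p under 0.05 in WT cells and 0 in Acod1-/- cells) or by DESeq2. Kmo and Haao, both enzymes of the kynurenine route, were called as lower with OI in both genotypes, on few reads. Kmo had 8 pooled counts with PM and 0 with OI and PM in WT cells, and 24 and 2 in Acod1-/- cells. Haao had 45 and 5, and 13 and 0. Calls on such genes depended on the samples fitted: with the compared groups alone, 4 genes were called with OI in WT cells, Nqo1, Serpinb2, Sult1a1 and Gstm1, and 6 were called without PM replicate 1 or without OI and PM replicate 2. The call of Kmo in WT cells was lost without either OI and PM library, and those of Haao and Arntl2 in Acod1-/- cells were lost without any 1 of the 4 libraries compared.

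Enzymes that act on the products of P450s moved with both treatments. Gstm1 rose from 3620 and 3506 counts with vehicle to 8317 and 9369 with PM and 19882 and 22668 with OI and PM in WT cells, and the Acod1-/- libraries went from 2850 and 3003 to 7874 and 7328 and to 17731 and 17309. Its log2 fold changes were 1.45 and 1.46 for PM, and 1.42 and 1.27 for OI. Gstp1 had 1.002 and 1.26 for PM, and 0.88 and 0.71 for OI, the last 2 past the adjusted p alone. Its PM call in WT cells stands at the fold threshold and was lost in 12 of 14 alternatives, DESeq2 among them, and in Acod1-/- cells it was lost without replicate 1 of vehicle or of PM. Sult1a1, a sulfotransferase for phenols, had log2 fold changes with OI of -3.21 in WT cells (adjusted p = 7.93e-06, edgeR) and -3.19 in Acod1-/- cells (adjusted p = 4.71e-07), and it was higher in Acod1-/- than in WT cells in all 3 conditions, by log2 fold changes of 1.21, 1.61 and 1.64 (adjusted p of 0.00215, 0.000589 and 0.0234, edgeR). Its exons share 61 bases with those of Sgf29 on the opposite strand. Of the 49 genes, Sult1a1 was the one called between genotypes in every condition, and Socs2 was called with OI and PM. Both calls with OI and PM were lost with the compared groups alone and without WT or Acod1-/- replicate 2.

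Likeness of pattern was described by Pearson's r of log2 CPM over the 12 libraries, among the 9557 genes whose CPM averaged 5 or more. The libraries fall into treatment groups, so these values mainly reflect shared steps between groups. The genes most like Ahr were Uso1 (r = 0.992), Abcc4 (0.988) and Ubxn4 (0.986), and those most like Tiparp were Riok3 (0.995), Fzd1 (0.995) and Slc30a1 (0.994). Ahrr was most like Dnajc10 (0.982), Mturn (0.972) and Zc3h12a (0.972), and Arnt was most like Baz2b (0.970), Nfatc3 (0.965) and Wdr19 (0.964). Among the members, Ahr and Tiparp had an r of 0.981, Ahrr and Tiparp 0.725, and Ahr and Ahrr 0.665. Arnt had negative values, of -0.0944 with Ahr, -0.334 with Ahrr and -0.234 with Tiparp.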

How the data were processed

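Single-end reads of 50 bp were obtained from BMDM RNA. Per the labels and the methods, the authors mapped the reads to GRCm38 and counted them per gene, and the deposited values are raw counts without normalization. The submitters' processing notes name FastQC 0.11.5, STAR 2.5.3a, Picard 2.9.0, featureCounts and DESeq2. The annotation release, the use of strand and the handling of reads that map to several places are not given in the sources used here.

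Counts of all 12 libraries were scaled by TMM and fitted with edgeR 4.0.16 (R 4.3.3) by quasi-likelihood, with 6 group means and no replicate block. Each SE is the log2 fold change divided by the root of the F statistic. The filter was CPM above 1.5 in at least 2 libraries. Genes of the lists under it were tested in a second fit of all genes with at least 10 counts in total. Ratios of pooled low counts carry exact binomial (Clopper-Pearson) intervals at 95%. Positions and exonic lengths came from GENCODE M21, and 48349 of 48795 identifiers had a symbol. On simulated counts for PM in WT cells (11228 genes), 95 of 100 genes changed by log2 1 and 99 of 100 changed by log2 2 were recovered on the adjusted p alone, without the fold threshold.

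The members and the lists were chosen with earlier results of these data known, and 1 gene of the lists is not reported here. The genes named are the 6 members, Acod1, the genes of the other lists called in a PM or OI comparison, and the 3 genes most like each member; the chaperone genes with no call were named after their values were seen. Alternatives were DESeq2 1.42.0, the compared groups alone, RLE or total count scaling, other filters, the adjusted p alone, a replicate block, a length correction (lowess, span 0.3), and each library left out in turn.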

Additional observations from a re-analysis of the deposited data

How the results depend on the processing

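In each alternative in which they were tested, the calls of Ahrr and Cyp1b1 with PM, of Ahr and Tiparp with OI, and of all 4 with OI and PM against vehicle held, in both genotypes. The call of Cyp1a1 was lost in several, as given above. With CPM above 1.5 required in all libraries, Cyp1b1 and Cyp1a1 were not tested. The members called were then 1 with PM in each genotype and 3 with OI and PM against vehicle in WT cells, and the other pathway genes called were 2 and 4 with PM, 2 and 2 with OI, 6 and 4 with OI and PM against vehicle, in WT and Acod1-/- cells, and 0, 0 and 0 between genotypes. Over all genes, this filter took the calls from 466 and 505 to 227 and 260 with PM, from 1211 and 1104 to 676 and 581 with OI, from 1808 and 1475 to 1131 and 871 with OI and PM against vehicle, and from 54, 63 and 103 to 16, 19 and 29 between genotypes. On the adjusted p alone, 4 members passed with PM in WT cells and 1 between genotypes with OI and PM, and the other genes passing were 15 and 13 with PM, 24 and 20 with OI, 24 and 23 with OI and PM against vehicle, and 2, 2 and 6 between genotypes. Of the 26 past the filter, 15 and 13, 18 and 16, 20 and 18, and 2, 2 and 5 passed. Over all genes past the filter, these shares were 24.8% and 23.9%, 43.9% and 34.6%, 65.5% and 49.4%, and 1.83%, 2.4% and 6.96%. With the compared groups alone, the other genes called were 4 with OI in WT cells, 2 between genotypes with vehicle and 0 with OI and PM. Between genotypes with vehicle, 2 were called with the length correction, with or without the block, and with a crossed block.

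Values that changed sign were all short of the test. With total count scaling they were -0.0662 for Arnt and -0.0789 for Ahrr (OI in WT cells) and 0.0399 for the genotype difference of Ahr in the OI step, which was 0.00288 with the compared groups alone. With the length correction, alone and with the block, Arnt gave 0.106 and 0.106 (OI and PM against vehicle, WT), 0.0738 and 0.0737 (the same, Acod1-/-), -0.0276 and -0.0276 (between genotypes, OI and PM), and genotype differences of -0.0017 and -0.0017 in the PM step and -0.0310 and -0.0310 in the OI step. The cause was not tested. Total count scaling also moved the median of all genes to -0.20 for OI and PM against vehicle in WT cells, from 0.02, and the split of higher and lower calls there from 604 and 1204 to 391 and 1644; with PM in WT cells it went from 339 and 127 to 291 and 173.

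With 1 library left out, the lone library of its group was assumed to vary like the others. The members called between genotypes with OI and PM then ranged from 0 to 1, and the other genes called ranged from 6 to 10 for OI in WT cells and from 0 to 3 between genotypes with OI and PM (0 without WT replicate 2 or Acod1-/- replicate 2). Log2 fold changes whose sign turned ranged as follows. Ahr between genotypes ran from -0.263 to 0.135 with PM and from -0.210 to 0.0339 with OI and PM. Arnt ran from -0.0747 to 0.182 (OI, WT), -0.226 to 0.0307 (OI and PM against vehicle, WT), and between genotypes from -0.00918 to 0.0692 with vehicle, -0.0441 to 0.131 with PM and -0.0598 to 0.196 with OI and PM. Ahrr ran from -0.162 to 0.272 (OI, WT), and Cyp1b1 from -0.448 to 1.40 (between genotypes, vehicle). The genotype differences in the PM step ran from -0.0746 to 0.106 for Arnt and -0.935 to 0.909 for Cyp1b1, and in the OI step from -0.221 to 0.169 for Ahr, -0.102 to 0.154 for Arnt, -0.0147 to 0.415 for Ahrr, -0.323 to 0.118 for Cyp1b1 and -0.0718 to 0.118 for Tiparp.

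The replicate numbers come from the labels, which do not say that a number marks a shared animal or day. Deviations of same-numbered libraries had correlations of 0.23, 0.73 and 0.24 between the WT groups, of -0.06, -0.09 and -0.04 between the Acod1-/- groups, and of -0.05, -0.41 and 0.25 between genotypes. With 2 libraries per group and no source for the pairing, the numbers were not taken as pairs. With the replicate block, 4 members were called with OI and PM against vehicle in WT cells, without Cyp1a1 (adjusted p = 0.0549, edgeR), and Ahrr differed between genotypes with OI and PM by 0.93 (adjusted p = 0.0132, edgeR). A block that exchanges numbers 1 and 2 among the Acod1-/- libraries given PM was added after seeing the data, since their correlation with the PM-treated WT libraries was -0.41, and it called 5 members there. A median depth of 34480636 counts per library limits statements on Cyp1a1 and Cyp1b1, which had at most 7 and 31 counts in a library.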
